A study of Mus musculus with 6 samples.

Results

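The 10 genes described here encode cytokines of the interleukin-1 family, their antagonists and receptors, and the core of the inflammasome. They are *Il1a*, *Il1b*, *Il18*, *Il1rn*, *Il18bp*, *Il1r2*, *Il1rap*, *Nlrp3*, *Casp1* and *Gsdmd*. They were chosen by name and function, not by a threshold on their values, although earlier results of these data were known. All 10 were found among the 24445 genes of the series. The RNA came from bone marrow-derived macrophages (BMDMs) of female mice, grown from bone marrow precursors for 7 days in L929-conditioned medium and then exposed for 24 h to IL-4 at 100 U/mL. The AclyM-KO group carried Acly fl/fl alleles, with loxP sites around exon 9 of *Acly*, together with a Cre driven by the *Lyz2* promoter, which is active in myeloid cells as a class. The Ctrl group consisted of Acly fl/fl littermates, which the labels call WT, so both groups carried the floxed allele and both received IL-4. The Cre is named for the AclyM-KO group only, so effects of the Cre and of the loss of *Acly* cannot be told apart. Naive macrophages were not analysed here. Each group had 3 libraries. The sources describe these in one place as technical replicates of pooled mice and in another as biological replicates, so the tests below measure the spread between these libraries, which may be technical. The age of the mice was not given in the sources used here.

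IL-1α and IL-1β signal through the same receptor, IL-1R1, which needs the accessory chain IL-1RAcP, encoded by *Il1rap*. IL-1β and IL-18 are made as inactive precursors and are cut by caspase-1, which is activated when a sensor such as NLRP3 assembles an inflammasome, and caspase-1 also cuts gasdermin D, whose fragment forms pores in the plasma membrane through which cytokines leave the cell. Signalling is held back by the receptor antagonist IL-1RN, by the decoy receptor IL-1R2 and by IL-18BP, a secreted protein that captures IL-18. In macrophages, the classical inducers of *Il1a*, *Il1b* and *Nlrp3* are Toll-like receptor ligands, whereas IL-4 is known to raise *Il1rn* and *Il1r2*.

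Reads on the transcript row kept for each gene came to between 12151975 and 15587283 counts per library. The targeted gene, *Acly*, was counted 4917, 3925 and 4606 times in Ctrl, against 2140, 2078 and 1978 times in AclyM-KO, a level of 41.4% of the Ctrl mean. Genes were tested with edgeR's quasi-likelihood test with Benjamini-Hochberg adjustment over the 12023 genes with enough counts, and a gene was called lower or higher in AclyM-KO at an adjusted p-value under 0.05. Levels are given in CPM (counts scaled to the library's total, itself adjusted by TMM), with the mean ± SD over the 3 libraries of a group.

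Among the 9 members that could be tested, *Il1a*, *Il18bp*, *Nlrp3* and *Gsdmd* were lower in AclyM-KO and *Casp1* was higher, while *Il1b*, *Il18*, *Il1rn* and *Il1rap* were not called. *Il1r2* had too few counts for the test. The 4 members called lower stand beside a background of 12.6% of all tested genes called lower, and the single member called higher beside 12.4% called higher. A log2 fold change below -0.58 was reached by *Il1a* and *Il18bp*, against 2.57% of all tested genes called lower beyond that limit. The 3 libraries of each group did not overlap for 6 of the 9 members, against 40.2% of all tested genes. The median log2 fold change of the 9 members was -0.36, and that of all tested genes was 0.00. In RNA from a whole culture, fewer cells expressing a gene and less of its RNA per cell cannot be told apart.

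**Figure D1:**
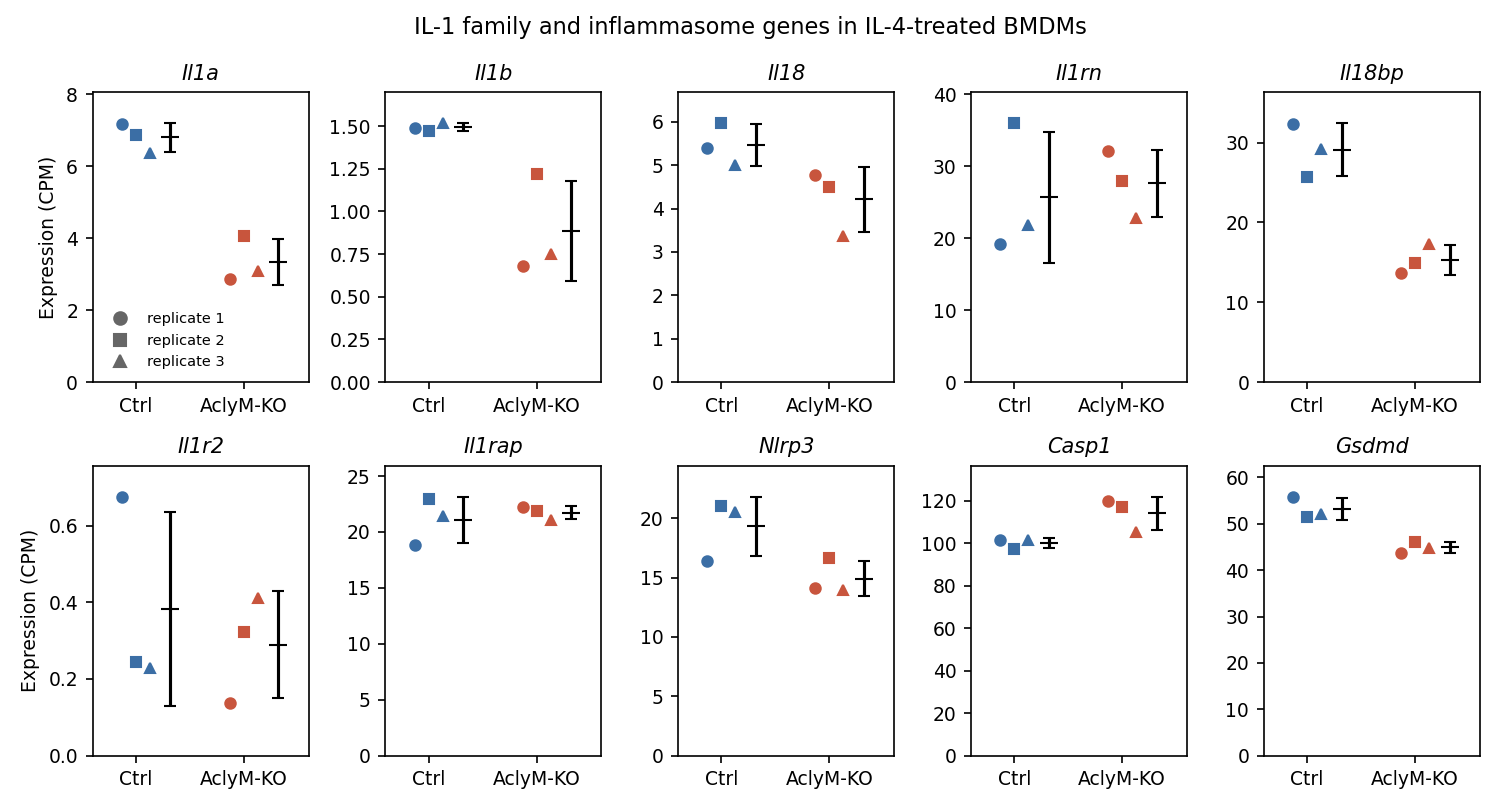
Expression in CPM of the 10 members in each of the 3 Ctrl libraries (blue) and 3 AclyM-KO libraries (red), with marker shapes for the replicate number and black bars for the mean ± SD of each group. Each panel starts at 0 and has its own scale. *Il1a* and *Il18bp* lie lower in every AclyM-KO library, at 49.0% and 52.5% of the Ctrl mean, whereas the libraries of *Il1rn*, *Il1r2*, *Il1rap* and *Nlrp3* overlap.

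Compared per length of transcript, as TPM (transcripts scaled to the library's total), the genes of caspase-1 and gasdermin D were more abundant than those of the cytokines. In Ctrl, *Casp1* was at 141 ± 3.09 TPM and *Gsdmd* at 62.8 ± 2.54 TPM, against 7.29 ± 0.391 TPM for *Il1a* and 2.33 ± 0.0444 TPM for *Il1b* (SD, n = 3 each). Between these lay *Il18bp* at 38.6 ± 4.31, *Il1rn* at 22.0 ± 7.77, *Il1rap* at 13.9 ± 1.43, *Il18* at 13.4 ± 1.18 and *Nlrp3* at 10.2 ± 1.37 TPM, and the level of *Il1r2* was 0.570 ± 0.375 TPM. With the 3200-base row of *Il1rap*, the neighbours *Il1rap* and *Il18* did not differ beyond their spread. *Il1rap* rows of 4438 and 4520 bases had nearly the same counts, and with those lengths its TPM would be lower. The place of *Il1rn* depends on its length, since the 2474-base row used here and a 728-base row received nearly the same counts, and with the shorter length its Ctrl level was 74.6 TPM. In AclyM-KO, *Casp1* stood at 159 ± 11.5 TPM and *Gsdmd* at 52.4 ± 1.34 TPM. There *Il18bp*, at 20.02 ± 2.34 TPM, no longer stood above *Il1rn*, at 23.3 ± 3.98 TPM with the 2474-base length, and their libraries overlapped. With the 728-base length, *Il1rn* was at 79.3 TPM in AclyM-KO and so stood above *Il18bp* in both groups.

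Of the 3 cytokine genes, *Il1a* was the most clearly reduced. *Il1a* encodes IL-1α, a cytokine that is active without cleavage by caspase-1 and also acts as an alarmin when cells die. The gene occupies bases 129299610 to 129309972 of chromosome 2 in GRCm38, on the minus strand. Its counts were 106, 84 and 84 in Ctrl and 42, 63 and 45 in AclyM-KO, so that every AclyM-KO library was below every Ctrl library. The mean level was 6.80 ± 0.398 CPM in Ctrl and 3.33 ± 0.632 CPM in AclyM-KO, a log2 fold change of -1.02 with an SE of 0.176 and an edgeR adjusted p-value of 0.000563. Whichever library was left out, the call was kept and the log2 fold change stayed between -1.19 and -0.93.

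The reads counted on *Il1a* cannot be assigned to that gene alone. The long noncoding RNA *Gm14023*, annotated on the opposite strand at this locus, had counts of 105, 84 and 84 (Ctrl) and of 42, 60 and 45 (AclyM-KO), which differ from those of *Il1a* by at most 3 counts in a library. These make up 99.1% of the *Il1a* total, although in GENCODE M21 the exons of *Gm14023* cover 11.2% of the *Il1a* transcript. The libraries were strand-specific, but the deposited counts do not separate the strands here, so the fall belongs to *Il1a*, to *Gm14023* or to both.

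**Figure D2:**
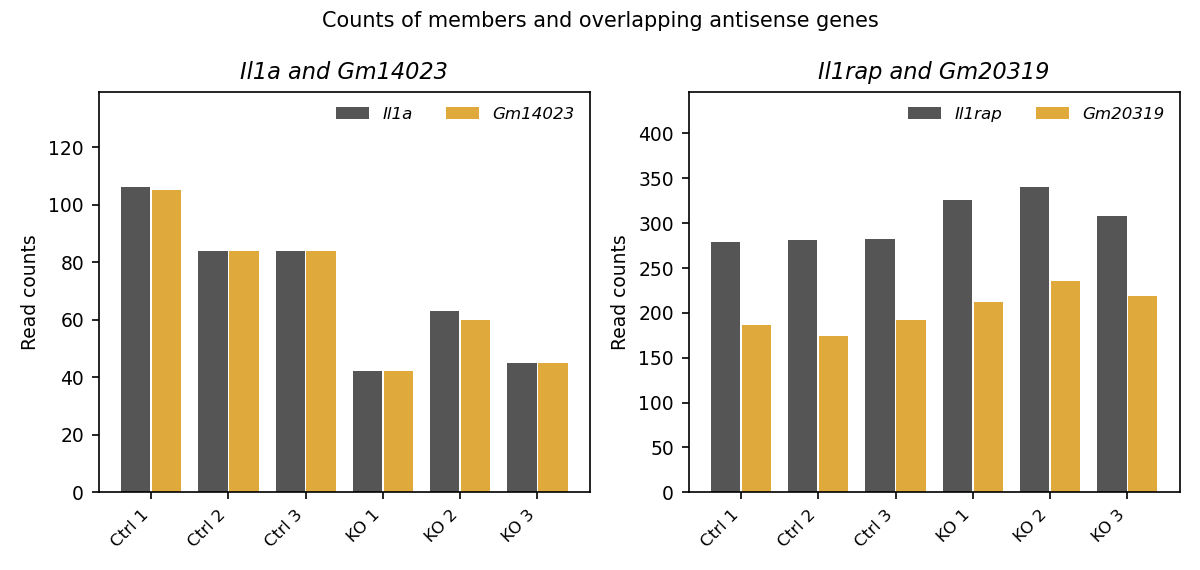
Counts of *Il1a* against its antisense neighbour *Gm14023*, and of *Il1rap* against *Gm20319*, in each of the 6 libraries. The *Il1a* and *Gm14023* counts are nearly the same in every library, with a largest difference of 3 counts, whereas the counts of *Gm20319* amount to 67.2% of the *Il1rap* total.

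*Il1b*, the gene of the inflammasome-processed cytokine IL-1β, was close to the lower limit of detection. It lies near *Il1a* on chromosome 2, from 129364570 to 129371139 on the minus strand. The Ctrl libraries held 22, 18 and 20 counts, against 10, 19 and 11 in AclyM-KO. The means of 1.49 ± 0.0234 and 0.886 ± 0.293 CPM gave a log2 fold change of -0.74, with a 95% confidence interval from -1.42 to -0.05 and an edgeR adjusted p-value of 0.110. The groups did not overlap in CPM, yet AclyM-KO replicate 2, at 1.22 CPM, was near the Ctrl level. At counts of this size a difference between the groups could not be established.

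*Il18* encodes the other cytokine that caspase-1 releases, and, unlike *Il1b*, it is known to be made by resting macrophages. On chromosome 9 from 50554827 to 50581840, it received 80, 73 and 66 counts in Ctrl and 70, 70 and 49 in AclyM-KO. These correspond to 5.46 ± 0.483 and 4.21 ± 0.752 CPM and to a log2 fold change of -0.37 (95% confidence interval -0.75 to 0.01, edgeR adjusted p = 0.149). All 3 AclyM-KO libraries were below the Ctrl libraries, but the difference did not pass the test. *Bco2*, whose span overlaps that of *Il18*, had counts that amount to 30.4% of the *Il18* total. In GENCODE M21, 0% of the *Il18* transcript lies under exons of other genes, but the counts were made on RefSeq rows. Whether the rows of *Il18* and *Bco2* share reads was not tested.

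Of the antagonist genes, *Il18bp* was called lower and *Il1rn* was not called. *Il18bp*, on the minus strand of chromosome 7 from 102014885 to 102018690, fell from 479, 314 and 385 counts in Ctrl to 200, 232 and 252 in AclyM-KO. In CPM, the lowest Ctrl library stood at 25.7 and the highest AclyM-KO library at 17.3. The group means were 29.1 ± 3.34 and 15.3 ± 1.84 CPM, with a log2 fold change of -0.93, an SE of 0.105 and an edgeR adjusted p-value of 1.20e-05. Of its transcript, 5.02% lies under exons of *Numa1*, a gene of the mitotic spindle on the other strand. *Numa1* was also called lower (log2 fold change -0.20, edgeR adjusted p = 0.0264), though its groups overlapped. Its level was 160 ± 14.1 CPM in Ctrl and 139 ± 5.16 CPM in AclyM-KO. Whether *Numa1* reads enter the *Il18bp* counts was not tested.

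*Il1rn*, the gene of the IL-1 receptor antagonist, lies on chromosome 2 from 24336853 to 24351494. Its counts were 284, 440 and 287 in Ctrl and 470, 435 and 333 in AclyM-KO. The corresponding levels were 19.2, 36.0 and 21.8 CPM in Ctrl and 32.1, 28.0 and 22.8 CPM in AclyM-KO, so the groups overlapped and Ctrl replicate 2 was the highest library of all. The log2 fold change was 0.12 with an SE of 0.175 and a 95% confidence interval from -0.25 to 0.49 (edgeR adjusted p = 0.665). This value rests on single libraries, since without Ctrl replicate 2 it was 0.43 and was called higher (edgeR adjusted p = 0.00939), whereas without Ctrl replicate 1 it was -0.06.

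The promoters of *Il1a* and *Il18bp*, the pair of members that fell the most, and of *Il1rn*, which did not, are shown so that their sequences can be compared. Each runs 5′ to 3′ on the strand of its gene, from 250 bases before to 50 bases after a transcript start annotated by RefSeq in GRCm38.p6. Capitals mark an AP-1 motif (TGANTCA) in *Il1a* and a STAT6-type motif (TTC and GAA separated by any 4 bases) in *Il1rn*. The regions are chr2:129309923-129310222 on the minus strand for *Il1a*, chr7:102018183-102018482 on the minus strand for *Il18bp* and chr2:24345041-24345340 on the plus strand for *Il1rn*.
Il1a: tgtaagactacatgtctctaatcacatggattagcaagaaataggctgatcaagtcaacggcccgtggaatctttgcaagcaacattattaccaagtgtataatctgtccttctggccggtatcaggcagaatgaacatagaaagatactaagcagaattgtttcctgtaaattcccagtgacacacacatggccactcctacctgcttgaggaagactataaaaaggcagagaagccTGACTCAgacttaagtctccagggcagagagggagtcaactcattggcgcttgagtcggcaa
Il18bp: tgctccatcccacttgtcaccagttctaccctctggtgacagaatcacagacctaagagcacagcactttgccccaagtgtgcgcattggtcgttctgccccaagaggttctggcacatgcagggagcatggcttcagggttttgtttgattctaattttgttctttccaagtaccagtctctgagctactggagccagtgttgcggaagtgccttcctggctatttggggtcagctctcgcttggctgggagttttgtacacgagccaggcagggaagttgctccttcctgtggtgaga
Il1rn: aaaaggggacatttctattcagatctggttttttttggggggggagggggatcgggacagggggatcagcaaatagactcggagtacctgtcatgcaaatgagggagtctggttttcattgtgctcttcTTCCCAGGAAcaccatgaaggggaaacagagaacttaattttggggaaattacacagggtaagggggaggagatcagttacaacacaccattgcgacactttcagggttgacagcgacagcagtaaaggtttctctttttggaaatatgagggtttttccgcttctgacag

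Promoters were found for 9 of the 10 members, 12 promoters in all. Both strands were searched for the AP-1 motif, the STAT6-type motif, the NF-kB consensus and the hypoxia core (ACGTG or GCGTG), which can overlap one another. Among 32851 promoters of the same length, 7.81% held the AP-1 motif, 6.95% the STAT6-type motif, 8.46% the NF-kB consensus and 43.8% the hypoxia core. The AP-1 motif of *Il1a* lay at positions -12 to -6 relative to the start. The more distal *Il1rn* promoter, which begins at 24336610, also held an AP-1 motif. STAT6-type motifs were further found in the *Il18* promoter and in 1 *Nlrp3* promoter, and an NF-kB consensus in the other *Nlrp3* promoter. The hypoxia core was found 9 times in the *Il1r2* promoter and 5 times in the *Il1rap* promoter, and also in promoters of *Il1rn*, *Nlrp3* and *Casp1*. A CACGTG gives a match on each strand, so the *Il1r2* matches are not all separate sites. The *Il18bp* and *Il1b* promoters held none of the 4 motifs. A match only describes the letters of this window.

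The receptor genes did not differ detectably between the groups. *Il1rap*, the shared co-receptor chain, lies on chromosome 16 from 26581704 to 26730117 with counts of 279, 281 and 282 (Ctrl) and of 326, 340 and 308 (AclyM-KO). The means of 21.1 ± 2.09 and 21.7 ± 0.579 CPM gave a log2 fold change of 0.05 with a 95% confidence interval from -0.14 to 0.24 (edgeR adjusted p = 0.734). The long noncoding RNA *Gm20319*, annotated on the other strand within part of the same locus, had counts that amount to 67.2% of the *Il1rap* total, although 0% of the *Il1rap* transcript lies under exons of the other strand. *Il1r2*, the decoy receptor, lies on chromosome 1 from 40074079 to 40125231 with counts of 10, 3 and 3 (Ctrl) and of 2, 5 and 6 (AclyM-KO). The groups overlapped, and at such counts no difference could be detected (two-sided exact permutation test on CPM, p = 0.70, where the smallest p that 3 against 3 libraries allow is 0.10).

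Of the 3 inflammasome members, 2 were called lower and 1 higher, all by small amounts, against 12.6% and 12.4% of all tested genes. The calls of *Casp1* and *Nlrp3* depended on single libraries, as given below. *Gsdmd*, the pore-forming effector, on chromosome 15 from 75862327 to 75867408, was at 55.9, 51.4 and 52.1 CPM in Ctrl and at 43.8, 46.1 and 44.9 CPM in AclyM-KO. Every AclyM-KO library was below every Ctrl library. The log2 fold change was -0.24 with an SE of 0.0593 and an edgeR adjusted p-value of 0.00738, and it stayed called with each library left out.

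*Casp1*, the protease that cuts IL-1β, IL-18 and gasdermin D, lies on chromosome 9 from 5298517 to 5307265. Its level was 101, 97.4 and 101 CPM in Ctrl and 120, 117 and 105 CPM in AclyM-KO, again without overlap but in the other direction. This is 114% of the Ctrl mean, a log2 fold change of 0.19 with an SE of 0.0563 and an edgeR adjusted p-value of 0.0227. The call was lost without AclyM-KO replicate 1 (log2 fold change 0.15, edgeR adjusted p = 0.120) and without AclyM-KO replicate 2 (0.17, edgeR adjusted p = 0.110).

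*Nlrp3*, the sensor, lies on chromosome 11 from 59541568 to 59566956. It was at 16.4, 21.02 and 20.5 CPM in Ctrl and at 14.1, 16.7 and 14.0 CPM in AclyM-KO. Ctrl replicate 1 lay within the range of the AclyM-KO libraries. The log2 fold change was -0.36 with an SE of 0.112 and an edgeR adjusted p-value of 0.0272. The call was lost when Ctrl replicate 2, Ctrl replicate 3, AclyM-KO replicate 1 or AclyM-KO replicate 3 was left out, with log2 fold changes of -0.30, -0.32, -0.33 and -0.32 and edgeR adjusted p-values of 0.0678, 0.0914, 0.0970 and 0.0999.

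**Figure D3:**
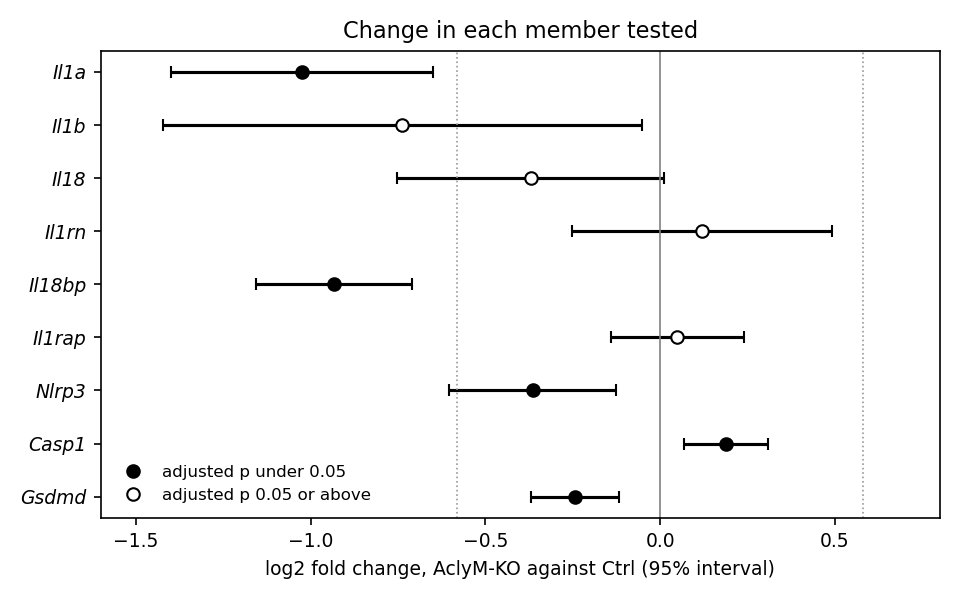
log2 fold change of AclyM-KO against Ctrl for the 9 members tested, with 95% confidence intervals from edgeR. The dotted lines mark log2 fold changes of -0.58 and 0.58. *Il1a* (-1.02) and *Il18bp* (-0.93) lie beyond the lower line, the interval of *Il1b* is the widest (-1.42 to -0.05), and *Casp1* (0.19) is the only called member above 0.

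Because a cytokine and its antagonist act against each other, their balance was computed within each library as a ratio of counts on the log2 scale. The ratio of *Il1rn* to *Il1a* counts was 2.68, 5.24 and 3.42 in Ctrl and 11.2, 6.90 and 7.40 in AclyM-KO. It was higher in all 3 AclyM-KO libraries, by 1.18 on the log2 scale (two-sided exact permutation test, p = 0.10, the smallest p these groups allow, and 0.20 when adjusted over the 6 ratios tested). The *Il1a* counts in this ratio, and in that of *Il1a* to *Il1b* below, cannot be told apart from those of *Gm14023*. The ratio of *Il1rn* to *Il1b* was 0.93 higher, and its groups overlapped (exact permutation p = 0.20, adjusted 0.24). For the IL-18 pair, the ratio of *Il18bp* to *Il18* was 5.99, 4.30 and 5.83 in Ctrl and 2.86, 3.31 and 5.14 in AclyM-KO, a difference of -0.54 with overlap (exact permutation p = 0.20, adjusted 0.24).

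Among the other ratios, *Nlrp3* to *Casp1*, the sensor against the protease, was 0.162, 0.216 and 0.202 in Ctrl and 0.118, 0.142 and 0.133 in AclyM-KO. It was 0.55 lower on the log2 scale without overlap (exact permutation p = 0.10, adjusted 0.20). The ratio of *Il1a* to *Il1b* was 0.26 lower, also without overlap (exact permutation p = 0.10, adjusted 0.20), and *Il1r2* to *Il1rap* overlapped (exact permutation p = 0.70). With 3 libraries in each group, none of the 6 ratios could reach a p-value under 0.05.

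**Figure D4:**
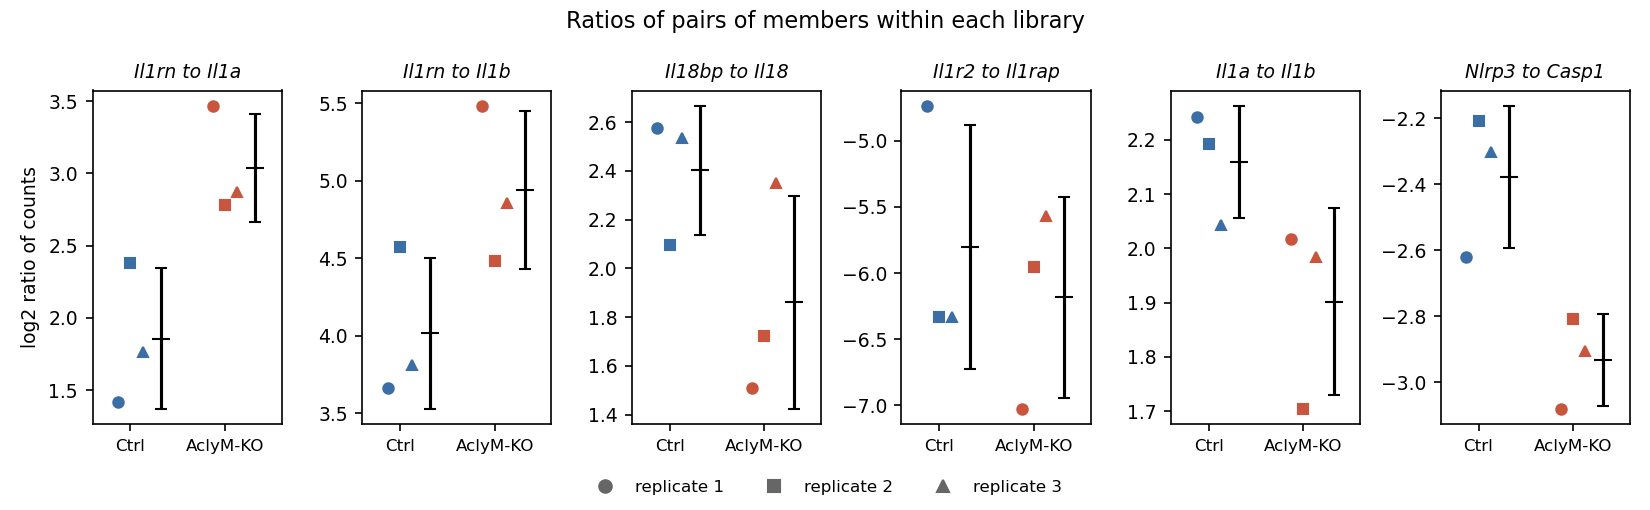
log2 ratio of counts for 6 pairs of members in each library, with the mean ± SD of each group in black. Each panel has its own scale, which does not start at 0. The ratio of *Il1rn* to *Il1a* is higher in all AclyM-KO libraries (mean log2 ratio 1.86 in Ctrl and 3.04 in AclyM-KO), whereas *Nlrp3* to *Casp1* is lower (-2.38 and -2.93). Counts of *Il1a* cannot be told apart from those of the antisense gene *Gm14023*.

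The remaining genes of the pathway were examined as 3 lists. Of 12 further ligands, antagonists and receptors of the IL-1 family, 5 had enough counts and 0 were called by edgeR, with 1 at an unadjusted p-value under 0.05, and likewise 0 by DESeq2 and by limma-voom. With no filter on low counts, edgeR called *Il1rl1* and *Il33* lower. The signalling receptor *Il1r1* was at 5.99 ± 1.28 CPM in Ctrl and 4.88 ± 0.486 CPM in AclyM-KO, with a log2 fold change of -0.29 (edgeR adjusted p = 0.268). The IL-33 receptor *Il1rl1* was at 32.9 ± 8.69 and 26.3 ± 2.06 CPM, with a log2 fold change of -0.31 (edgeR adjusted p = 0.112), which was called lower without Ctrl replicate 1 (-0.48, edgeR adjusted p = 0.00510) and with no filter on low counts (-0.31, edgeR adjusted p = 0.00171), and shrank to -0.098 without Ctrl replicate 2 (edgeR adjusted p = 0.511). Its ligand *Il33* was counted 5, 11 and 7 times in Ctrl, against 4, 1 and 0 times in AclyM-KO, too few for the main test, with a log2 fold change of -2.29 when there was no filter on low counts (edgeR adjusted p = 0.0246). A count of 0 there allows up to 3 counts, or 0.204 CPM, as far as counting error alone is concerned.

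Of 26 further inflammasome genes, 24 were tested, of which 5 were higher and 8 lower, against 12.4% and 12.6% of all tested genes, with a median log2 fold change of -0.09. *Nlrc4*, which responds to bacterial flagellin through NAIP proteins, was at 7.57, 6.13 and 6.07 CPM in Ctrl and at 3.75, 3.41 and 3.77 CPM in AclyM-KO, a log2 fold change of -0.86 (edgeR adjusted p = 0.00157). *Nlrp1b*, the sensor of anthrax lethal factor, had a log2 fold change of -0.43 (edgeR adjusted p = 0.00303), though its reads could be split with those of its close paralog *Nlrp1a*. *P2rx7*, the ATP-gated channel upstream of NLRP3, fell from 86.8 ± 4.43 to 69.8 ± 3.27 CPM (log2 fold change -0.31, edgeR adjusted p = 0.000803), although it was not called when the transcript row with the fewest counts was used (log2 fold change -0.35, edgeR adjusted p = 0.0983).

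The adaptor gene *Pycard*, which encodes ASC and links NLRP3 to caspase-1, was at 48.4 ± 2.99 CPM in Ctrl and 41.4 ± 1.14 CPM in AclyM-KO (log2 fold change -0.23, edgeR adjusted p = 0.0172). Its call was lost without Ctrl replicate 1, AclyM-KO replicate 1 or AclyM-KO replicate 2, with edgeR adjusted p-values of 0.0719, 0.0579 and 0.0824. *Casp8*, a protease that can also cut IL-1β, was lower (log2 fold change -0.31, edgeR adjusted p = 0.00118). *Casp4*, the sensor protease for cytosolic lipopolysaccharide, moved the other way, from 22.5, 22.7 and 23.4 CPM to 29.1, 30.3 and 30.3 CPM (log2 fold change 0.39, edgeR adjusted p = 0.00120), as did *Gbp2*, an interferon-induced GTPase (0.38, edgeR adjusted p = 0.00149). Chosen after their values were seen, *Mefv*, the gene of pyrin, and *Serpinb1a*, an inhibitor of neutrophil proteases and inflammatory caspases, had the lowest and highest log2 fold changes of this list, -0.997 and 0.833 (edgeR adjusted p = 0.00357 and 0.00407).

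Of 25 genes of signalling from the IL-1 receptor through MyD88, all were tested, with 2 higher and 4 lower, a share near the 12.4% higher and 12.6% lower among all tested genes, and the median log2 fold change was 0.03. *Irak2*, a kinase of this pathway, fell from 29.5 ± 1.32 to 21.9 ± 1.30 CPM (log2 fold change -0.43, edgeR adjusted p = 0.000998), and *Tnfaip3*, which encodes the NF-kB inhibitor A20, fell from 77.0 ± 9.33 to 61.9 ± 1.47 CPM (-0.31, edgeR adjusted p = 0.00499). The NF-kB subunit gene *Nfkb1* was lower (-0.19, edgeR adjusted p = 0.00792) and the kinase regulator *Ikbkg* was higher (0.23, edgeR adjusted p = 0.00125). *Nfkb2* (0.19, edgeR adjusted p = 0.0418) and *Ikbkb* (-0.14, edgeR adjusted p = 0.0471) were near the limit, and lost their calls when any library other than Ctrl replicate 1 (*Nfkb2*) or Ctrl replicate 2 (*Ikbkb*) was left out, with edgeR adjusted p-values up to 0.165 and 0.157. Both calls were also lost with DESeq2 (adjusted p = 0.105 and 0.127) and with the replicate block (edgeR adjusted p = 0.05001 and 0.0808), and that of *Ikbkb* with limma-voom (adjusted p = 0.0549). The adaptor *Myd88* was not called (0.18, edgeR adjusted p = 0.0520).

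**Figure D5:**
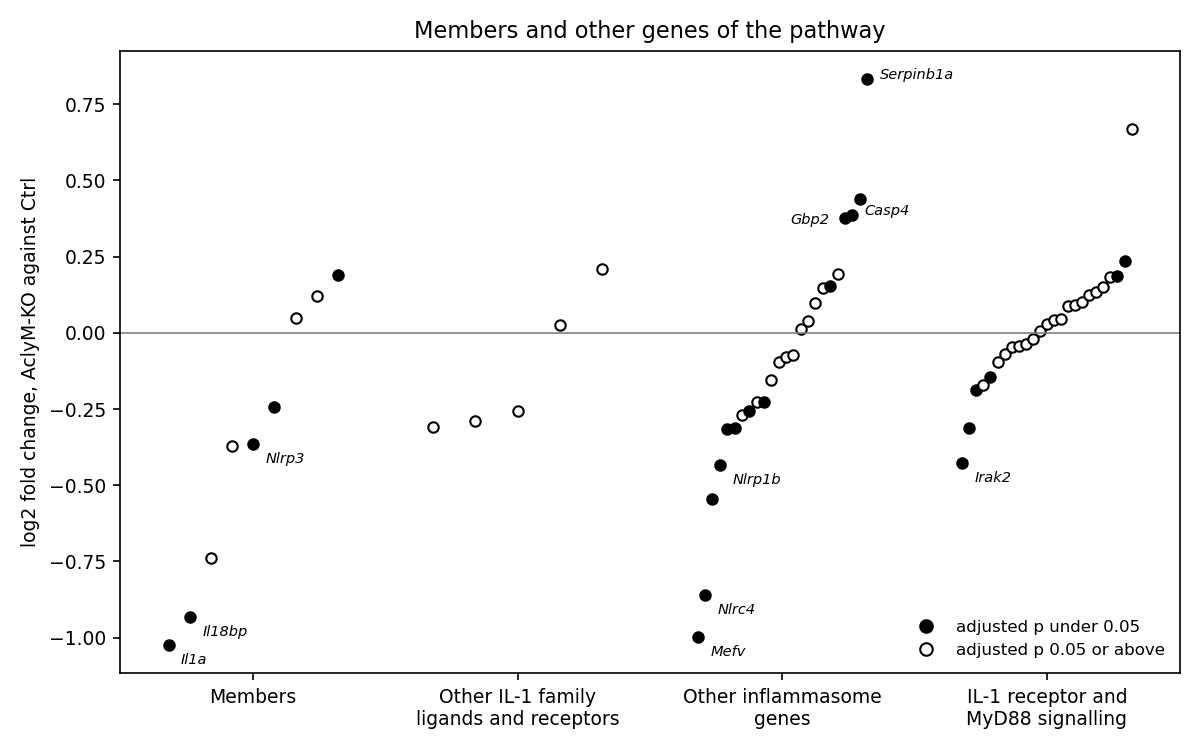
log2 fold change of AclyM-KO against Ctrl for the tested members and the tested genes of the 3 pathway lists, each sorted from low to high, with filled points for an adjusted p-value under 0.05. In the list of other inflammasome genes 8 filled points lie below 0 and 5 above, and in the list of other IL-1 family genes no point is filled.

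Markers of other cell types were examined beside these results. The macrophage list was at 13399 to 14710 CPM in summed level in Ctrl and at 11088 to 11539 CPM in AclyM-KO. Of its 8 genes, 4 were called lower and 1 higher, against 12.6% and 12.4% of all tested genes. *Lyz2*, whose promoter drives the Cre, made up 42.5% of the macrophage sum. It was itself called lower, at 62.8% of the Ctrl mean (log2 fold change -0.67, edgeR adjusted p = 5.79e-08). Of the other 7 genes, *Mertk*, *Itgam* and *Csf1r* were called lower, at 60.4%, 82.3% and 87.0% of the Ctrl mean. *Adgre1* was called higher, at 126%, while *Cd68*, *Fcgr1* and *Cd14* were not called. The sum of these 7 genes, in which such changes offset one another, was 7274 to 7590 CPM in Ctrl and 6973 to 7339 CPM in AclyM-KO. The summed level of 13 neutrophil markers, cells that also express *Il1b*, *Il1rn* and *Il1r2*, was 274 to 308 CPM in Ctrl and 237 to 253 CPM in AclyM-KO, of which *Csf3r* alone made up 63.1%. In that list *Csf3r* and *Mmp9* were called lower, but *S100a8*, *S100a9* and *Mmp8* were called higher, at 181%, 150% and 238% of the Ctrl mean, and *Ltf* and *Ngp*, which were not called, were at 127% and 129% without overlap between the groups. The 5 monocyte markers summed to 11.8 to 16.0 CPM in Ctrl and 13.3 to 17.4 CPM in AclyM-KO, and the 8 dendritic cell markers to 9.93 to 12.1 and 9.94 to 11.3 CPM. The mast cell and basophil list summed to 2.97 to 5.24 CPM in Ctrl and 7.67 to 9.07 CPM in AclyM-KO. Of this sum *Kit*, the single gene of the list that was tested and called, made up 85.7%, while *Cpa3* was at 0.650 CPM in Ctrl and 0.556 CPM in AclyM-KO and *Mcpt8*, *Fcer1a*, *Ms4a2* and *Tpsb2* were at 0 in all libraries. Lymphocyte markers, with *Ncr1* at 0, and fibroblast markers, with *Lum* at 0, reached at most 0.676 and 1.30 CPM. The part of these other cells in the values of the members was not tested.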

How the data were processed

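Strand-specific mRNA libraries were sequenced and, per the labels and the study's methods, aligned to mm10 with STAR 2.5.2b. The authors deposited unnormalized read counts per RefSeq transcript, and the counting program was not given in the sources used here. Rows were paired with genes through RefSeq for GRCm38.p6 and then GENCODE M21. The 117 rows without a gene (0.370% to 1.38% of counts) were left out. The row with the highest total was kept for each gene, since isoform rows share reads, although counts per gene had been assumed. Positions are those of GENCODE M21.

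The quasi-likelihood test of edgeR 4.0.16 was run in R 4.3.3 on genes passing filterByExpr (minimum count 10), with TMM scaling and a single term for genotype. CPM use TMM-scaled library sizes, and ratios a pseudocount of 0.5. DESeq2 1.42.0, limma-voom (limma 3.58.1), other scalings and filters, a stricter fold change limit, another transcript row, a replicate block and the removal of each library were the alternatives. The fit was checked on simulated data.

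The members and lists were chosen with earlier results of these data known. Besides *Acly* and the members, *Il1r1*, *Il1rl1*, *Il33*, *Pycard*, *Myd88* and the 6 called genes with the lowest p-value of each list were named by rule. *Il36rn* matched no row. Intervals cover counting error or the spread between libraries only.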

Additional observations from a re-analysis of the deposited data

How the results depend on the processing

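With each library left out in turn, 972 to 1548 of all genes were called lower and 1002 to 1512 higher, of 12146 to 12189 tested. The members called higher numbered 0 to 2, since *Il1rn* was added without Ctrl replicate 2 and *Casp1* was lost without AclyM-KO replicate 1 or 2. The members called lower numbered 3 or 4, and the pathway genes called higher 4 to 8. The log2 fold change of *Il1rn* ranged from -0.060 to 0.43 and that of *Il1rap* from -0.031 to 0.11, and the log2 ratio of *Il1r2* to *Il1rap* differed by -0.69 to 0.15. With the transcript row of lowest total, *Il1rap* was at -0.10. With a fold change limit of 0.58 on the log2 scale, 309 of all genes were lower and 358 higher, 2 members were lower and 0 higher, and 2 pathway genes were lower and 1 higher. With the replicate block, 1329 of all genes were lower and 1315 higher, and again 4 members were lower and 1 higher. Replicate numbers did not pair the libraries, with correlations of deviations of -0.065, 0.050 and -0.031. DESeq2, limma-voom, the other scalings and the other filters also gave 4 members lower and 1 higher. Over all genes, DESeq2 called 1146 lower and 1120 higher of 17275, and limma-voom 1494 and 1492 of 12023. The other scalings called 1451 to 1710 lower and 1283 to 1547 higher of 12023. Without a filter, 1718 were lower and 1567 higher of 17275. With at least 1 CPM in 3 libraries, 1499 were lower and 1475 higher of 11645. Depth limits *Il1b* and *Il1r2* the most, which had at most 22 and 10 counts in a library.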

Other observations

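*Il1rap*, which is known to give membrane-bound and soluble chains, has several RefSeq transcripts with rows of their own. Those of 3200, 4438 and 4520 bases had nearly the same total counts (1816, 1816 and 1815), and a shorter one of 2306 bases had 483. On the shorter row, the counts were 73, 90 and 73 (Ctrl) and 92, 84 and 71 (AclyM-KO). These are 26.2%, 32.03% and 25.9% of the counts of the 3200-base row in Ctrl and 28.2%, 24.7% and 23.1% in AclyM-KO. The groups overlapped, and both rows count reads from the exons they share. The 3 rows of *Il1rn*, whose products include the secreted and the intracellular antagonist, differed by at most 3 counts in a library and so do not tell these forms apart.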
